A study of Mus musculus with 6 samples.

Results

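The collagen chains are the polypeptides that wind together, in threes, into the triple helices of the collagens. They were taken as all gene symbols of the array of the form Col, number, a, number, which gave 38 chains carried by 79 probes, of 31508 symbols and 45281 probes in all. RNA came from *ex vivo* cortical bone tubes of C57BL6 mice aged 3 months, that is, femur and tibia shafts freed of marrow by flushing and of cells on their surfaces by digestion. The tubes were cultured overnight and the medium was then changed. Culture ran for a further 24 hours, either untreated (control) or with Pth 1-34 at 250 nM (PTH), and each group had 3 arrays. RNA was pooled from several mice before hybridization. Whether the 3 preparations of a group came from separate experiments is not given in the sources used here, so the p-values measure the spread between these arrays, which may be technical.

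Collagens are grouped by the structure they build. The fibrillar chains form the fibrils that give tissue its tensile strength, and type I collagen is the main protein of bone matrix. Network-forming chains make the sheets of basement membranes and the lattices of growth cartilage, while FACIT collagens sit on the surface of fibrils. The remaining chains build beaded filaments, anchoring fibrils, transmembrane collagens, and the multiplexins of basement membrane zones. PTH acts on osteoblasts and osteocytes through a receptor that raises cAMP and is known to change the amount of matrix these cells make.

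A probe was taken as above background with a detection p under 0.05, and was tested when this held on at least 3 of the 6 arrays. Between 34.2% and 38.4% of all probes were above background on each array. The tissue label was checked with marker genes. Of 7 osteocyte markers, *Dmp1*, *Mepe*, *Phex*, *Irx5* and *Pdpn* (listed as *Gp38*) were above background on all 6 arrays. *Sost* was so on 3 control arrays and 1 PTH array, and *Fgf23* on none. The mean signal of *Pdpn* was higher with PTH, and that of every other tested marker of the list was lower. Among these, *Sost* met the filter for testing only through the control arrays, and its groups overlapped. The summed normalized signal of the list was 8210–9480 in control and 6420–7740 with PTH. Of 6 skeletal muscle markers, 5 were above background on no array, among them *Acta1* and *Ckm*. The red cell markers *Hbb-b1* and *Hba-a1* were present, and the summed signal of that list of 5 was 8610–10100 in control and 2400–2680 with PTH. In RNA from whole bone, fewer cells of a type and less RNA per cell cannot be told apart.

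Of the 38 chains, 21 had a tested probe and 19 of these were above background on all 6 arrays at their brightest probe. Each chain is represented below by its brightest tested probe unless another is named. Signals are normalized log2 values, changes are PTH minus control on that scale with the limma standard error (SE), and the adjusted p is that of limma over all probes tested. Signals of different probes are not compared with each other as levels. *Col3a1* rose 1.89-fold and *Col15a1* fell 2.09-fold, and no other chain was called, which took 1.5-fold or more and an adjusted p under 0.05. Over all 11979 genes tested, 0.685% were called higher with PTH and 1.04% lower. The median change of the 21 chains was 0.07, beside 0.01 for all genes, with 15 chains above 0 and 6 below. For 10 of the 21 chains (47.6%) the groups did not overlap, with PTH above control for 5 and below it for 5, where 21.9% of all genes tested were separated in this way. Among the chains above background on all 6 arrays 8 of 19, or 42.1%, were separated, beside 23.6% of all such genes. An unadjusted p under 0.05 was reached by 8 of the 21 chains, beside 14.9% of all genes, and by 6 of the 19 above background on all 6 arrays, beside 14.7% of all such genes. The remaining 2 chains, *Col10a1* and *Col17a1*, met the filter only through the group in which they were higher, so their inclusion in these counts of the 21 carries no weight.

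**Figure D1:**
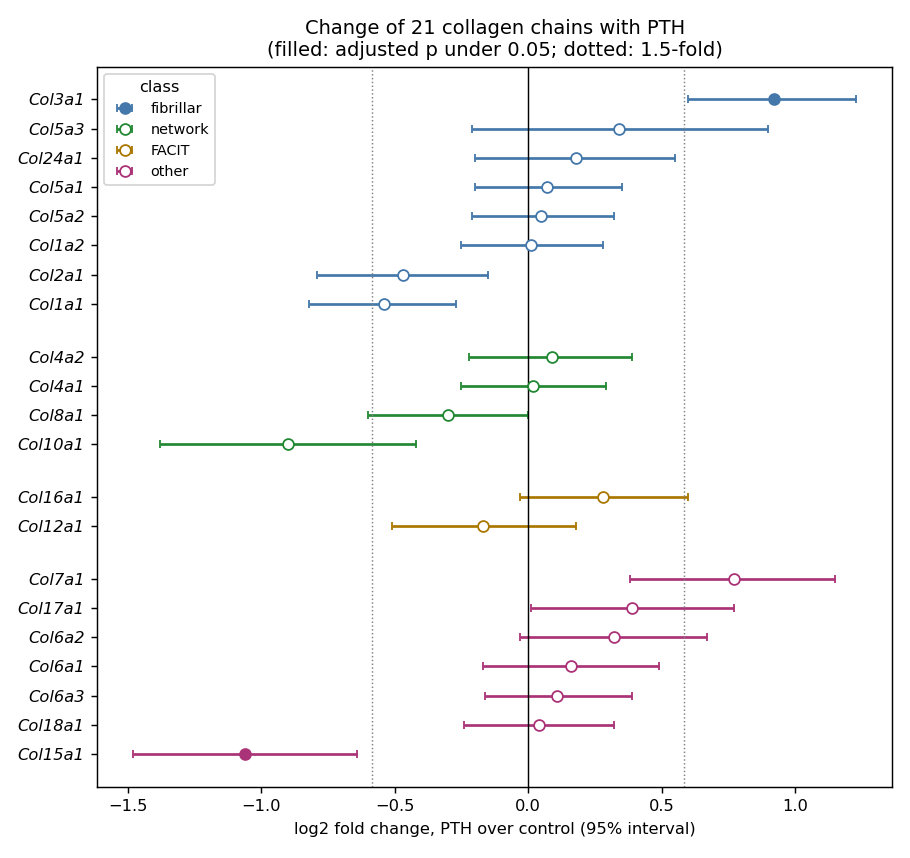
Change of the 21 tested collagen chains with PTH, by class. The horizontal axis is the log2 fold change of PTH over control, points are estimates from 3 control and 3 PTH arrays, bars are 95% intervals, filled points have an adjusted p under 0.05 and dotted lines mark a 1.5-fold change. *Col3a1* lies highest at 0.92 and *Col15a1* lowest at -1.06, and 10 chains have intervals that stay inside the dotted lines. *Col10a1* and *Col17a1* were above background on 1 array of their lower group.

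The promoters of the called chains are shown with that of *Col1a2*, the tested chain whose mean signal differed least between the groups. The RefSeq promoter table of GRCm38.p6 held 31 of the 38 chains and 17 of the 21 tested, without *Col1a1*, *Col2a1*, *Col5a2* and *Col12a1* among the tested chains. The 250 bases before each annotated start are printed 5′ to 3′ on the strand of the gene, here the plus strand for each. Capitals mark matches on either strand to the string CCAAT, the string TATAAA, the string GGGCGG, the half-site of the cAMP response element (TGACG) or the full element that contains this half-site (TGACGTCA).
*Col3a1*, chr1:45311288-45311537: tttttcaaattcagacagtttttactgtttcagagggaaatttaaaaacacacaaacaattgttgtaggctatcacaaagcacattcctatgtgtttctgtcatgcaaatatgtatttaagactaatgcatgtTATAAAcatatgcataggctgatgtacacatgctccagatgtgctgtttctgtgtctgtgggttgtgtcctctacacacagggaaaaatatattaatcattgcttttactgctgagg
*Col15a1*, chr4:47207762-47208011: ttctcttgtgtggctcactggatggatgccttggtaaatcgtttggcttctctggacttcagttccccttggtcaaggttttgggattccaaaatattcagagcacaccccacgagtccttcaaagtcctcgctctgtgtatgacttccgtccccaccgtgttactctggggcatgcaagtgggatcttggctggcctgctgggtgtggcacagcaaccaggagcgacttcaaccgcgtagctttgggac
*Col1a2*, chr6:4505368-4505617: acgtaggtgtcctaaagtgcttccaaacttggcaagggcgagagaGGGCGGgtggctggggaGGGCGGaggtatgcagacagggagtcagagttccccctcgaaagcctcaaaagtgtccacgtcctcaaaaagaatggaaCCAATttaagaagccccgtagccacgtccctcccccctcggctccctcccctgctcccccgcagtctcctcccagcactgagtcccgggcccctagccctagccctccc

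The stretch of *Col3a1* held TATAAA, 117 to 112 bases before the start, and that of *Col1a2* held GGGCGG at 2 places and CCAAT 109 to 105 bases before the start. None of the 5 strings was in the stretch of *Col15a1*. Over the 19 promoters of the tested chains, CCAAT was in 42.1%, GGGCGG in 52.6%, TATAAA in 15.8% and TGACG in 10.5%. Over all 32851 promoters of the same length the shares were 33.8%, 32.7%, 12.4% and 17.8%. The full TGACGTCA was in none of the 19 and in 1.55% of all promoters. The TGACG string was in the stretches of *Col7a1* and *Col24a1*. These are matches of letters and were not tested as sites.

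The fibrillar class had 11 chains on the array, of which 8 were tested. *Col3a1*, whose product forms the type III fibrils of extensible tissues and early repair tissue, had control signals of 9.68, 9.53 and 9.73 and PTH signals of 10.43, 10.54 and 10.74. The groups did not overlap, the lowest PTH signal being well above the highest in control. The change was 0.92 (SE 0.14, limma adjusted p = 0.0211). A second probe of *Col3a1* had signals of 7.54, 7.54 and 7.52 in control and 7.96, 8.09 and 7.92 with PTH, again without overlap, and differed by 0.46 (SE 0.12, limma adjusted p = 0.119). The rise of the brightest probe stayed between 0.84 and 0.99 when any of the 6 arrays was left out, while its adjusted p then lay between 0.0525 (without PTH replicate 1) and 0.0995 (without control replicate 2), so that no fit with 5 arrays called it. With all 6 arrays it was called under every other scaling, background correction and filter run, at changes between 0.84 and 1.09. It was not called by the methods' t-test after adjustment.

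Of 8 markers of tendon and fibrous tissue, 4 were tested, and their summed signal with the rest of the list was 2370–2730 in control and 3060–3450 with PTH. They did not move one way. *Dcn*, the gene of the fibril-binding proteoglycan decorin, was the one called, higher with PTH by 0.83 (SE 0.12, limma adjusted p = 0.0181). Over all genes tested, 0.685% were called higher. *Dcn* was the brightest of the list and gave most of the summed signal, so the higher sum with PTH rests on this gene. *Fmod*, the gene of the related proteoglycan fibromodulin, lay lower on every PTH array, by a difference of -0.87 (SE 0.21, limma adjusted p = 0.11). *Scx* differed by -0.13 and *Mkx* by 0.12. *Thbs4*, *Dpt* and *Pi16* were above background on no array, and the median change of the 4 tested was 0. The part of such cells in the rise of *Col3a1* was not tested.

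*Col1a1* and *Col1a2* encode the partner chains of the type I collagen molecule. *Col1a1* had control signals of 13.55, 13.61 and 13.66 and PTH signals of 13.00, 13.02 and 13.17, the latter all lower. Its change was -0.54 (SE 0.12, 95% interval -0.82 to -0.27), a 1.46-fold fall. It met neither the fold minimum of 1.5 nor the limit of the adjusted p (limma adjusted p = 0.0798). A second probe of *Col1a1* was above background on no array. The deposited signals before normalization were 9640, 12400 and 12800 in control and 6910, 8580 and 12700 with PTH, and these overlapped. They were far below the highest signal of any array, which was at least 48880. The adjusted p of *Col1a1* depended on the processing, from 0.00114 without background correction to 0.96 under median scaling, where its change was -0.39 and the median of all genes shifted to 0.12. Where the adjusted p was under 0.05, the fall stayed below 1.5-fold, so *Col1a1* was not called there either.

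*Col1a2* gave 13.02, 13.00 and 13.09 in control and 13.04, 13.00 and 13.11 with PTH, so that the groups covered the same range. Its change was 0.01 (SE 0.11, 95% interval -0.25 to 0.28, limma adjusted p = 0.971), an interval that leaves out the estimate for *Col1a1*. Within each array, *Col1a2* minus *Col1a1* was -0.53, -0.61 and -0.57 in control and 0.05, -0.02 and -0.06 with PTH. The mean of this difference was larger with PTH by 0.56, and the groups did not overlap. This pair was chosen after its values were seen and was not tested.

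**Figure D2:**
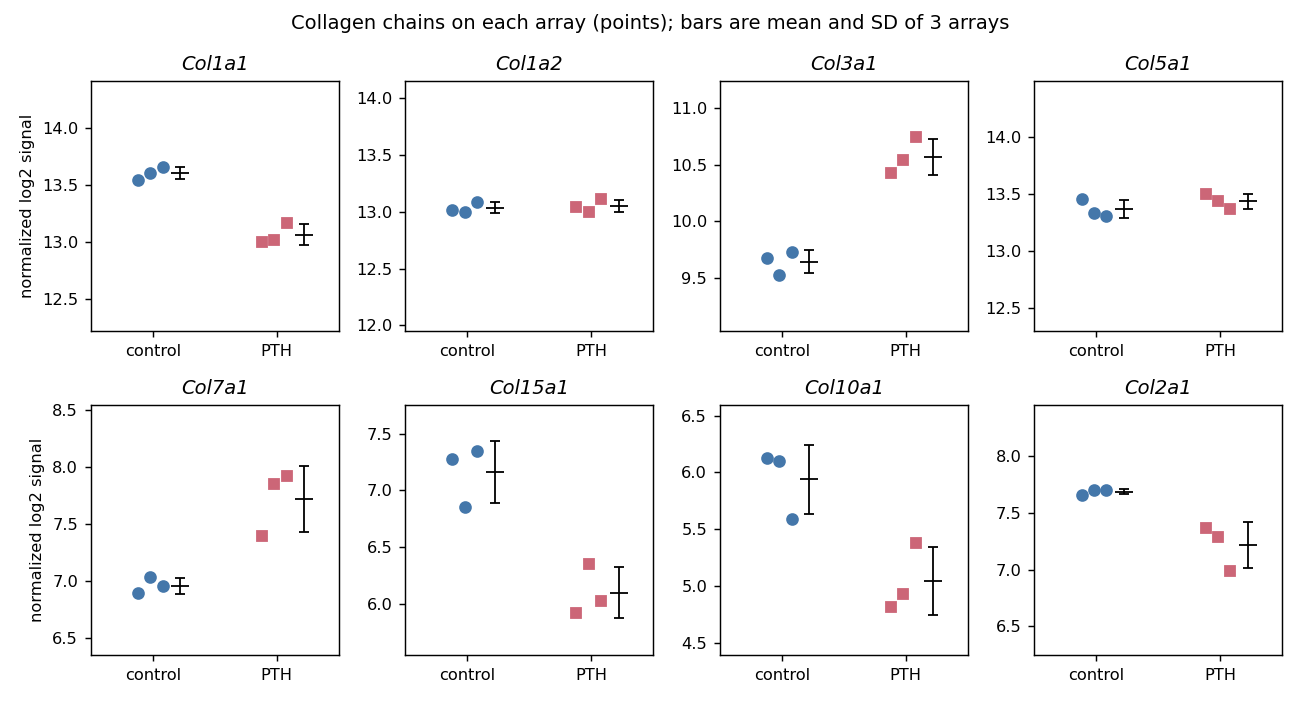
Normalized log2 signal of 8 collagen chains on each array, with control arrays as circles and PTH arrays as squares. Bars give the mean and SD of 3 arrays, and each panel spans the same range of log2 units. *Col3a1* and *Col7a1* lie higher and *Col1a1*, *Col15a1*, *Col10a1* and *Col2a1* lower on the PTH arrays, while *Col1a2* and *Col5a1* overlap.

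*Col3a1* and *Col1a1* encode chains of the main interstitial collagens and had estimates of opposite sign. The difference *Col3a1* minus *Col1a1* within an array was -3.86, -4.08 and -3.93 in control and -2.57, -2.49 and -2.43 with PTH. It was larger with PTH by 1.46 (exact permutation test, two-sided, p = 0.1, the smallest p that 3 arrays against 3 can give). On every PTH array *Col3a1* was above and *Col1a1* below all control arrays. The difference was therefore bound to separate, and this p adds no support beyond the values of the single chains. With other scalings, background corrections or any array left out the difference stayed between 1.38 and 1.51. Against *Col1a2* the difference of *Col3a1* was larger with PTH by 0.90 and against *Col5a2*, the next protein-coding gene to *Col3a1* on its chromosome in RefSeq, by 0.87, both without overlap and not tested.

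**Figure D3:**
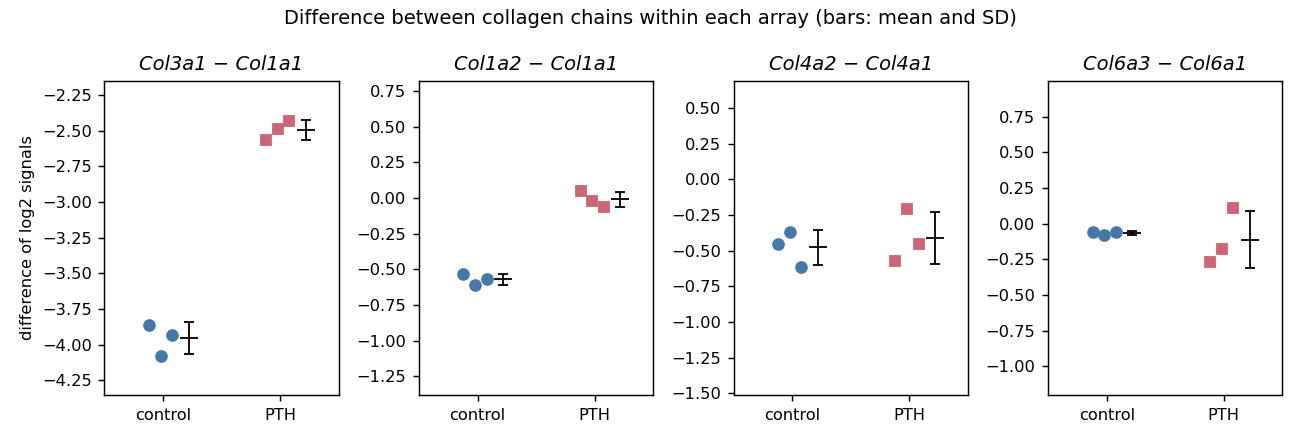
Difference of the log2 signals of a pair of collagen chains within each array, control as circles and PTH as squares, with the mean and SD of 3 arrays. *Col3a1* minus *Col1a1* and *Col1a2* minus *Col1a1* are higher on every PTH array, by 1.46 and 0.56, while the pairs of type IV and type VI chains overlap.

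The type V chains regulate the width of type I fibrils. *Col5a1* differed by 0.07 (95% interval -0.20 to 0.35), with signals of 13.46, 13.33 and 13.31 in control and 13.50, 13.44 and 13.37 with PTH. *Col5a2* differed by 0.05 (95% interval -0.21 to 0.32) at its brightest probe, and a dimmer probe differed by 0.45 (95% interval -0.10 to 1.00). *Col5a3* was dim and variable, at 5.78 ± 0.45 (SD, n = 3) in control and 6.12 ± 0.24 (SD, n = 3) with PTH. *Col24a1*, a minor fibrillar chain of developing bone, differed by 0.18 (95% interval -0.20 to 0.55). The groups overlapped for all 4 of these chains.

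*Col2a1*, the main fibrillar chain of cartilage, was above background on all arrays although the epiphyses had been removed below the growth plate. Its brightest probe gave 7.66, 7.70 and 7.70 in control and 7.37, 7.29 and 6.99 with PTH, all PTH arrays lower. The change was -0.47 (SE 0.14, limma adjusted p = 0.169), and the other 2 tested probes differed by -0.30 and -0.24. *Col10a1*, the network-forming chain of hypertrophic cartilage, was dim, exceeding background on 3 control arrays but on 1 with PTH. Its signals were 6.13, 6.10 and 5.59 in control and 4.82, 4.93 and 5.38 with PTH, again without overlap. The difference of the means was -0.90, and -0.31 without background correction. As *Col10a1* met the filter only through the control arrays, and most of its PTH signals were not above background, nothing is read from its test.

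Beside these chains, 4 of 9 cartilage markers could be tested, with a summed signal over the list of 841–861 in control and 949–974 with PTH and a median change of -0.05. *Acan*, listed as *Agc1* and encoding the cartilage proteoglycan aggrecan, exceeded background on 3 control arrays and none with PTH, so that its fold is a limit: it was at least 1.59-fold lower with PTH (limma adjusted p = 0.0114). *Acan* entered the test only through the control arrays, so its p is no independent support. For the limit each PTH array was given its dimmest signal still above background, or the signal of the probe if that was higher. *Sox9*, the cartilage transcription factor and the one marker of the list above background on all 6 arrays, lay the other way, at 9.23 ± 0.03 in control and 9.55 ± 0.03 with PTH (SD, n = 3). Every PTH array was higher, by a difference of 0.32 that was not called (SE 0.11, limma adjusted p = 0.233). *Sox9* was by far the brightest of the list and gave most of the summed signal. *Comp* differed by 0.11 and *Chad* by -0.21, each above background on 2 control arrays and 1 PTH array. *Matn1*, *Matn3*, *Hapln1*, *Cnmd* (listed as *Lect1*) and *Epyc* were above background on no array. The other fibrillar chains of cartilage, *Col11a1* and *Col11a2*, and *Col27a1* had no tested probe, and the type IX chains *Col9a1*, *Col9a2* and *Col9a3* had none either. The part of cartilage in the values of *Col2a1* and *Col10a1* was not tested.

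Of 9 network-forming chains 4 were tested and none was called by limma, while 2, *Col10a1* and *Col8a1*, had an unadjusted p under 0.05. By the methods' t-test at an unadjusted p under 0.05 with a 1.5-fold change, *Col10a1* was counted, and after adjustment no collagen chain was. *Col4a1* and *Col4a2*, neighbouring genes whose products form the common type IV network of basement membranes, differed by 0.02 (95% interval -0.25 to 0.29) and 0.09 (95% interval -0.22 to 0.39). *Col4a1* gave 10.63, 10.47 and 10.63 in control and 10.64, 10.56 and 10.58 with PTH, and *Col4a2* 10.10 ± 0.08 and 10.19 ± 0.15 (SD, n = 3). Both overlapped between the groups. *Col8a1*, a short-chain network collagen, was lower on every PTH array at both tested probes. The brightest gave 9.91, 9.87 and 9.96 in control and 9.74, 9.44 and 9.66 with PTH, a change of -0.30 (SE 0.13, limma adjusted p = 0.34). The other gave 9.39, 9.32 and 9.50 against 8.61, 8.76 and 9.07, a change of -0.59 (SE 0.15, limma adjusted p = 0.126). *Col8a2*, its partner, and *Col4a3*, *Col4a5* and *Col4a6* were above background on no array with any probe, and *Col4a4* on 1.

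Of 7 FACIT chains, *Col12a1* and *Col16a1* were tested. Neither was called by limma and neither reached an unadjusted p under 0.05. *Col16a1* had signals of 10.10, 10.00 and 10.10 in control and 10.24, 10.24 and 10.57 with PTH, all PTH arrays higher, and differed by 0.28 (SE 0.14, limma adjusted p = 0.398). *Col12a1*, found in dense connective tissue and periosteum, gave 10.12, 10.45 and 10.53 in control and 10.16, 10.13 and 10.32 with PTH. The difference was -0.17 (SE 0.15, limma adjusted p = 0.678) at this probe and 0.07 at another, and the signals of the first overlapped between the groups. *Col14a1* and *Col19a1* were above background on no array.

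The other chains numbered 11, with 7 tested. *Col15a1* encodes the core protein of a multiplexin of basement membrane zones, found around capillaries and muscle fibres. Its single probe gave 7.28, 6.85 and 7.35 in control and 5.92, 6.35 and 6.03 with PTH. The groups did not overlap, and control replicate 2 and PTH replicate 2 were nearest to each other. The change was -1.06 (SE 0.18, limma adjusted p = 0.0339). With an array left out it fell by between 0.97 and 1.22 and passed without control replicate 2 (limma adjusted p = 0.0497). It did not pass without control replicate 1 (0.135), control replicate 3 (0.114), PTH replicate 1 (0.116), PTH replicate 2 (0.0649) or PTH replicate 3 (0.102). Scaling to a common median (-0.96, limma adjusted p = 0.0774) also left it short of the threshold, as did testing without the detection filter (0.0657). Without background correction the change was -0.54, below 1.5-fold.

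All 7 endothelial markers were tested beside *Col15a1*. None was called by limma, and 1, *Vwf*, had an unadjusted p under 0.05, beside 14.9% of all genes. Changes were -0.45 for *Vwf*, -0.38 for *Kdr* and *Tek*, -0.28 for *Cdh5*, 0.06 for *Pecam1*, 0.07 for *Emcn* and 0.14 for *Esam* (listed as *Esam1*). *Kdr* met the filter only through the control arrays. The median change was -0.28, and the summed signal was 2150–2320 in control and 2060–2320 with PTH. *Emcn* and *Esam* were the brightest of the list and gave most of this sum. The part of endothelium in the fall of *Col15a1* was not tested. *Col18a1* is the other multiplexin and the source of endostatin. Its brightest probe gave 9.86, 9.87 and 9.75 in control and 9.93, 9.91 and 9.75 with PTH, a change of 0.04 (95% interval -0.24 to 0.32). A dim probe of *Col18a1* had no overlap, with 5.72, 5.44 and 5.49 against 6.32, 6.29 and 6.05, and differed by 0.67 (SE 0.14, limma adjusted p = 0.0709).

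*Col7a1*, the chain of the anchoring fibrils that fix epithelia to connective tissue, was higher on every PTH array. It gave 6.89, 7.03 and 6.95 in control and 7.39, 7.85 and 7.92 with PTH, with PTH replicate 1 nearest to the control arrays. The change was 0.77 (SE 0.17), short of a call at a limma adjusted p of 0.0759. It was called with an offset of 50 (0.63, limma adjusted p = 0.0192), with detection p under 0.01 on all 6 arrays (0.028) and without PTH replicate 1 (0.93, 0.0473). Without background correction the adjusted p was 0.00742 and the change, at 0.49, below 1.5-fold. *Col17a1*, a transmembrane collagen of hemidesmosomes, was near the background and above it on 1 control and 3 PTH arrays. Its signals were 5.11, 4.62 and 4.98 in control and 5.25, 5.17 and 5.45 with PTH. The PTH signals were all higher, but the chain met the filter only through them, and nothing is read from its test.

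The type VI chains, which build beaded filaments around cells, were not called. *Col6a1* had signals of 12.58, 12.47 and 12.39 in control and 12.81, 12.66 and 12.43 with PTH and differed by 0.16 (95% interval -0.17 to 0.49). The other 2 tested probes of *Col6a1* differed by 0.27 and 0.31 and were higher on every PTH array. *Col6a3* gave 12.52, 12.38 and 12.32 in control and 12.54, 12.48 and 12.54 with PTH, an overlapping difference of 0.11 (95% interval -0.16 to 0.39). *Col6a2* differed by 0.32 (95% interval -0.03 to 0.67). *Col6a2* was the one of these whose brightest probe was higher on every PTH array, at 10.05, 10.17 and 10.16 against 9.98, 9.90 and 9.53. The differences *Col6a2* minus *Col6a1* and *Col6a3* minus *Col6a1* within an array overlapped between the groups. The transmembrane chains *Col13a1*, *Col23a1* and *Col25a1*, and *Col28a1*, had no tested probe, with *Col23a1* and *Col28a1* above background on no array.

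At their brightest probe, 10 of the 21 chains (*Col1a2*, *Col4a1*, *Col4a2*, *Col5a1*, *Col5a2*, *Col6a1*, *Col6a3*, *Col12a1*, *Col18a1* and *Col24a1*) had 95% intervals that lay wholly within a 1.5-fold change. More than 1 probe was tested for 9 chains, and for 7 of these all tested probes had the same sign. *Col12a1* and *Col6a3* were the exceptions, the latter with 0.11 at its brightest probe and -0.28 (limma adjusted p = 0.384) at a dim one. Of the 79 collagen probes, 32 were tested, 2 of these were called, where 1.61% of all probes tested on the array were, and 36 were above background on no array. In all, 9 chains had no probe above background on any array, and the remaining 8 untested chains had at most 2 arrays above background at any probe.

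**Figure D4:**
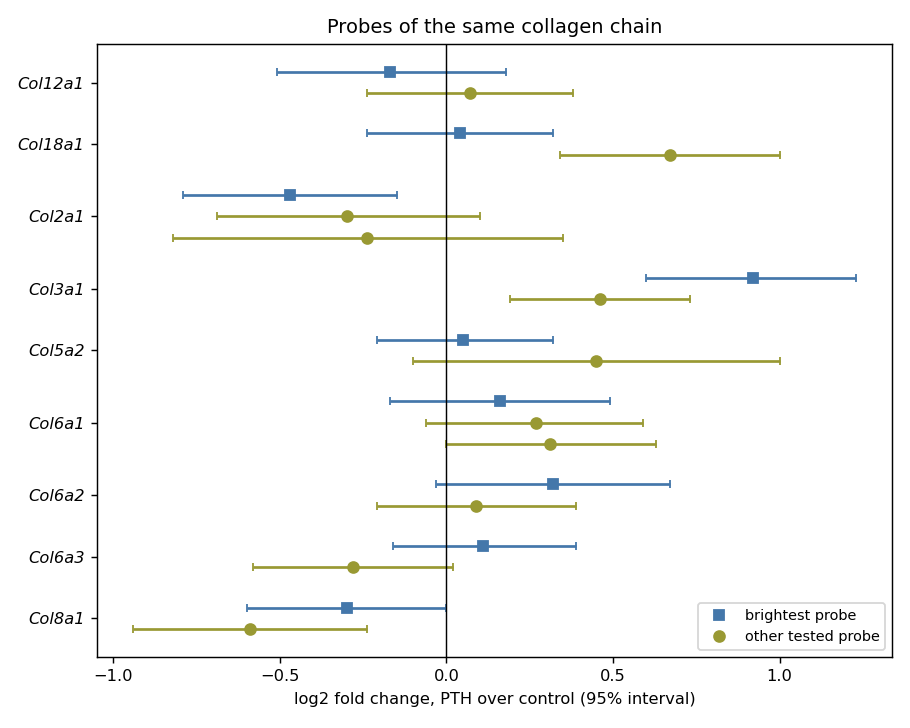
Log2 fold change of PTH over control for each tested probe of the 9 chains with more than 1, with 95% intervals from 3 control and 3 PTH arrays. Squares are the brightest probe of a chain and circles the others. The probes of *Col3a1* both lie above 0, at 0.92 and 0.46, those of *Col8a1* both below, at -0.30 and -0.59, and those of *Col12a1* and *Col6a3* fall on both sides.

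Genes that modify, fold, cut, crosslink, bind or degrade collagen were taken as a list of 54, of which 43 were tested. 1 was called higher by limma and none lower, where 1.73% of all genes were called in either direction. An unadjusted p under 0.05 was reached by 5 higher and 5 lower, beside 14.9% of all genes in either direction, and the median change was -0.06. The called gene was *Mmp9*, a gelatinase that cuts denatured collagen and is known from osteoclasts, with signals of 11.74, 11.88 and 11.96 in control and 12.47, 12.56 and 12.75 with PTH. It rose 1.66-fold, by 0.73 (SE 0.13, limma adjusted p = 0.0433). By role, the median change was -0.06 for 14 hydroxylases, glycosyltransferases and their partners, -0.15 for 7 genes of folding and export and -0.01 for 4 of propeptide cleavage. It was -0.09 for 4 crosslinking enzymes, -0.20 for 7 receptors and -0.01 for 7 genes of degradation. Beside *Col1a1*, the osteoblast markers differed by a median of -0.40 over 5 tested genes. Of these *Sp7* and *Ibsp* were called lower, where 1.04% of all genes were. The summed signal of the list was 42000–47000 in control and 36600–39200 with PTH. *Spp1*, the brightest of the list, differed by 0.01.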

How the data were processed

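RNA of 6 bone tube preparations (3 control, 3 PTH) was hybridized to Illumina mouse bead arrays and exported from GenomeStudio. The authors deposited linear signal intensity per probe, neither normalized nor background subtracted, and a detection p-value per probe against the negative controls. Here limma 3.58.1 under R 4.3.3 was used. It took the place of the GenomeStudio differential expression score of the paper, which could not be recomputed. Signals were corrected by normexp through the detection p-values with an offset of 16, quantile normalized and taken to log2 (neqc). Probes with a detection p under 0.05 on at least 3 arrays entered lmFit and eBayes (16214 probes), and p-values were adjusted over these by Benjamini-Hochberg. Calls needed an adjusted p under 0.05 and 1.5-fold. The procedure was tested on simulated data. Precision is limited by how few arrays there were, and no slide is named. All tested chains could be named, with values on all arrays for called chains and the 8 of highest mean signal, and of the pathway list called genes only. Array values of other chains whose groups did not overlap were added after they were seen. Members, lists (collagen pathway, 8 lists of cell markers) and tests were chosen with earlier results of these data known. Of 107 list symbols, 92 matched directly, 14 through older RefSeq names and 1 was unmatched. The macrophage list of 5, with 4 tested, had no called gene by limma, 1 with an unadjusted p under 0.05 and a median change of -0.15. Probe sequences were not used here, so related transcripts may share probes.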

Additional observations from a re-analysis of the deposited data

How the results depend on the processing

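The counts of called chains were small and moved with the processing. Lower chains numbered 1 (*Col15a1*) and were 0 under quantile normalization without background correction, median scaling, no detection filter and the replicate block. Higher chains numbered 1 (*Col3a1*), 2 with an offset of 50 or detection p under 0.01 on all arrays (*Col7a1* added) and 0 with the replicate block. With 1 array left out both counts ranged from 0 to 1. The higher chain was then *Col7a1*, without PTH replicate 1, and *Col3a1* was called in none of these fits. An adjusted p under 0.1 gave 3 lower and 2 higher. Student's t-test gave 2 lower and 2 higher at an unadjusted p under 0.05, and 0 and 0 after adjustment. The counts of 3 and 2 lower held *Col10a1*, which met the filter only through the control arrays. Cyclic loess, the mean of all probes of a chain and no fold minimum left 1 and 1. The cause of these changes was not tested. The median change of the tested chains, 0.07, was 0.23 with arrays scaled to a common median, where that of all genes was 0.12, and 0.04 over all 38 chains without a detection filter, while leaving out 1 array gave 0.04 to 0.12, the highest without control replicate 1. *Col3a1* minus *Col1a1* kept its direction under all alternatives. Of 269 values of single chains under alternatives, 250 left the call as it was, 16 ended one (*Col15a1*, *Col3a1*) and 3 added one (*Col7a1*). No called chain changed sign. The sign turned for values near 0: *Col1a2* was -0.01 with cyclic loess, -0.01 without control replicate 2 and -0.02 without PTH replicate 3, and *Col4a1* was -0.03 without control replicate 2 and, rounded, 0 without PTH replicate 1.

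The replicate numbers shared by the groups name arrays without a stated pairing. Deviations of arrays of one number correlated at 0.07, 0.06 and 0.27 over tested probes, and with the number as a block *Col3a1* (limma adjusted p = 0.0661) and *Col15a1* (0.118) were no longer called. Probes near background, as of *Col10a1*, *Col17a1*, *Col5a3* and *Col24a1*, limit what could be seen.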

Other observations

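A further probe, listed under the lower-case symbol col11a2 and so outside the set of 79, exceeded background on 1 of the PTH arrays and none of the controls, with normalized log2 signals of 4.53, 4.76 and 4.87 in control and 4.65, 4.69 and 5.22 with PTH. It was not tested.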
